A study of Mus musculus with 2 samples.

Results

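Glycolysis and the transport of glucose and lactate were examined through 33 genes, in RNA from the optic nerves and tracts of male mice, a white matter of myelinated axons and glia. The genes were chosen by name, from the enzymes, carriers and regulators of this pathway, but with earlier results of these data known. Of the 33, 30 had a probe set (a group of short probes for 1 transcript) of their own on the array, and 28 of these had a signal above the floor of 106.4 used here in at least 1 pool. All 28 were above it in both pools. Across the array, 18193 genes had such a probe set and 12473 were above the floor in at least 1 pool. Wild-type (WT) mice of 13 to 15 weeks were compared with mice of 12 to 15 weeks that carry no intact Cd47 gene in any cell (CD47 null, Cd47-/-; here CD47 KO). CD47 is a membrane protein that binds SIRPα, an inhibitory receptor of microglia and other myeloid cells. There was 1 array per genotype, each with RNA pooled from several animals, 5 WT and 4 CD47 KO by the design text of the series and by the methods of the study, and 4 WT and 5 CD47 KO by the labelling protocol. With 1 pool of each kind there is no replicate check, no test and no error on any ratio below.

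Cells split glucose to pyruvate through the same chain of reactions, but many of its steps can be run by several isoenzymes, whose genes are used to different degrees by neurons, glia and immune cells. Pyruvate is either reduced to lactate, which leaves or enters cells through monocarboxylate transporters, or taken into the mitochondria. There the pyruvate dehydrogenase complex acts on it. In white matter, oligodendrocytes and astrocytes are known to hand lactate to the axons they surround, and activated macrophages and microglia are known to use more glycolysis than resting ones.

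The signal is the MAS5 intensity of a probe set on a linear scale, and the log2 ratio is that of CD47 KO over WT for the probe set of each gene with the highest signal over both arrays. The Cd47 signal itself was lower in the CD47 KO pool, from 3928 to 1346 by its brightest probe set (log2 ratio -1.54), as it was by each of the 4 probe sets that reached above the floor. Over all 12473 genes the median log2 ratio was -0.02, and 46.8% of the ratios were above 0. Pairs of probe sets for the same gene, the sole repeat measurement in these data, differed in log2 ratio with an SD of 0.36, and 95% of 11653 pairs differed by less than 0.74. That spread is between probe sets on the same arrays, and does not measure the spread between different genes, mice or hybridisations.

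Most glycolysis genes differed little between the pools, with a median log2 ratio of -0.04 over the 28 measured members, 12 above 0 and 16 below. A difference of less than 1.25-fold was found for 18 of these members (64.3%) and for 74.2% of all genes. Hk2 and Hk3, which encode hexokinases, were the members over 2-fold higher in CD47 KO (2 of 28, 7.14%, beside 1.21% of all genes), and none was over 2-fold lower, beside 0.818% of all genes. At the lower threshold of 1.5-fold, Pfkfb3 and the lactate transporter gene Slc16a7 joined them (4 of 28, 14.3%, beside 4.02%). Eno2, the neuronal enolase, was the sole member over 1.5-fold lower (3.57%, beside 4.68%). Each of these counts rests on 1 to 4 genes. When the ratios were taken relative to Gapdh, by the 3′ control probe set of this gene, 2 members were over 1.5-fold higher and 2 over 1.5-fold lower, and none was over 2-fold either way. Relative to its 5′ control probe set, 2 members were still over 2-fold higher, and 3 were over 1.5-fold higher and 1 over 1.5-fold lower.

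**Figure D1:**
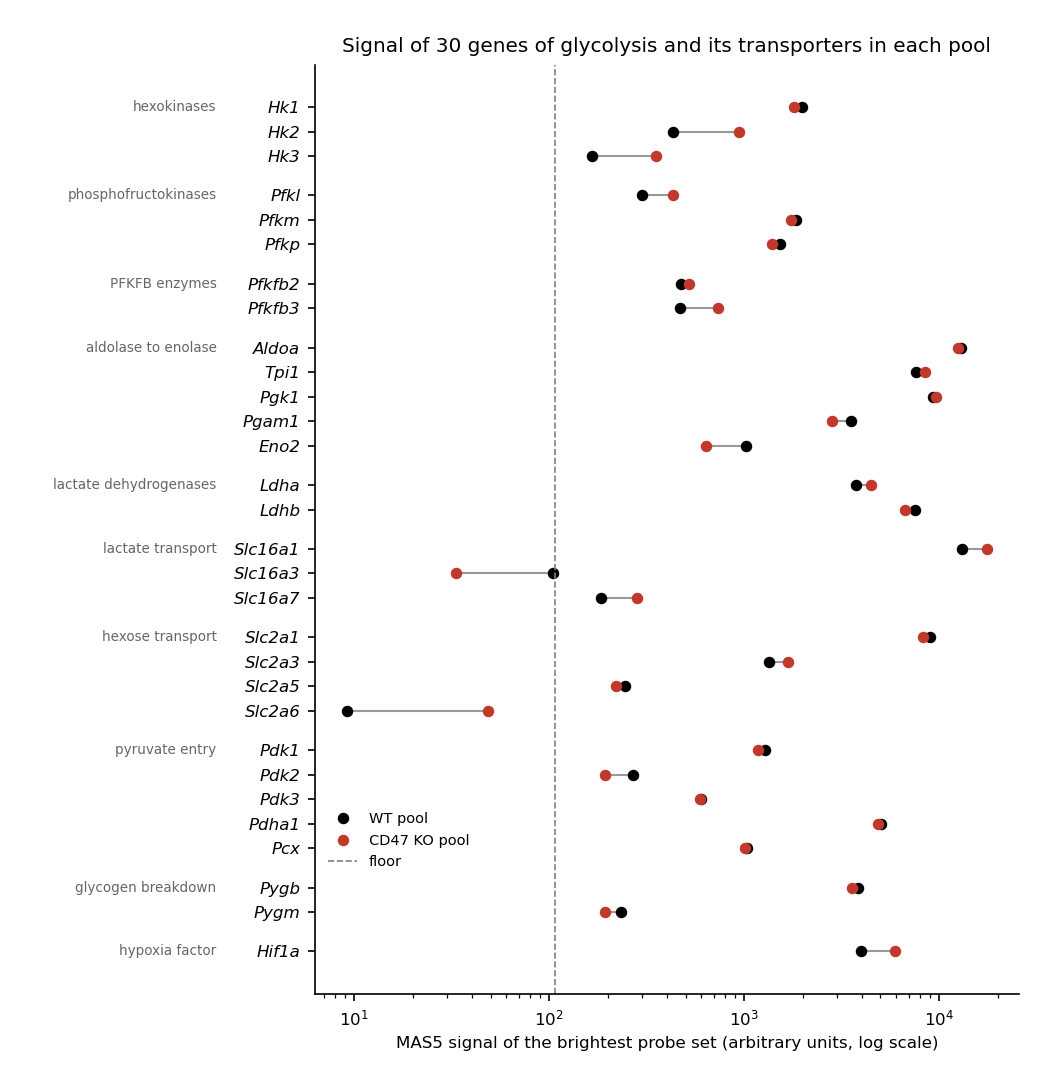
MAS5 signal of the brightest probe set (horizontal, log scale) of the 30 genes with a probe set of their own, in the WT pool (black) and the CD47 KO pool (red), ordered by step of the pathway, with the floor of 106.4 as a dashed line. The widest gaps above the floor are those of Hk2 and Hk3, both higher in CD47 KO, and Eno2, lower in CD47 KO, while Slc16a3 and Slc2a6 lie under the floor in both pools.

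Hexokinases trap glucose in the cell by phosphorylation. Hk2, the inducible isoform, had a signal of 429.6 in the WT pool and 935 in the CD47 KO pool, 2.18-fold higher (log2 ratio 1.12). It ranked 116th from the highest among the 12473 genes and was measured by 1 probe set. Hk3, the isoform of myeloid cells, went from 166 to 352, 2.12-fold higher (log2 ratio 1.08). Its second probe set went from 78.0, under the floor, to 144, at least 1.35-fold higher. The brighter Hk3 probe set is of a type marked for cross-hybridisation, and without such probe sets the log2 ratio of Hk3 was at least 0.43. Hk1, the general isoform of brain and the one that neurons chiefly use, had signals of 1979 and 1803 (log2 ratio -0.13). The ratios of Hk2 and Hk1 thus lay 1.26 apart, and the spread of such gaps between different genes was not measured here. Those of Hk3 and Hk1 lay 1.22 apart by the brighter Hk3 probe set. By the unmarked one they lay at least 0.57 apart, as its WT value was set to the floor. With all genes split by signal into 4 classes of equal size, 0.93% of the class that holds Hk2 and 1.73% of the dimmest class, which holds Hk3, were over 2-fold higher. In pooled tissue, more or fewer cells of a type and more or less RNA per cell cannot be told apart.

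Phosphofructokinase commits the sugar to glycolysis. The signals in WT and CD47 KO were 1843 and 1728 for Pfkm, the muscle-type subunit (log2 ratio -0.09), and 1525 and 1391 for Pfkp, the platelet-type subunit (log2 ratio -0.13). Pfkl, the liver-type subunit that leukocytes also use, went from 299 to 433 (log2 ratio 0.54). Its other probe set above the floor went the other way, from 296 to 246 (log2 ratio -0.27), so that the direction of Pfkl depended on the probe set. Pfkfb3 encodes an enzyme that makes the strongest activator of phosphofructokinase and that is inducible by hypoxia and by inflammatory signals. It went from 469 to 735, 1.57-fold higher (log2 ratio 0.65), by its sole probe set above the floor. Pfkfb2, the related isoform known from heart, had signals of 475 and 522 (log2 ratio 0.14). The ratios of the 2 isoforms lay 0.51 apart, with no measure of the spread of such a gap.

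Of the 5 measured enzymes from aldolase to enolase, 3 differed by less than 1.25-fold by their brightest probe sets (Aldoa, Tpi1 and Pgk1), and Pgam1 and Eno2 were lower in CD47 KO. Aldoa (aldolase A) had signals of 12874.5 in WT and 12469 in CD47 KO, and log2 ratios between -0.15 and 0.04 by 5 probe sets. Tpi1 (triosephosphate isomerase) had signals of 7617 and 8434, with log2 ratios from 0.06 to 0.15 over 3 probe sets. Pgk1 (phosphoglycerate kinase) had signals of 9274 and 9611 by its brightest probe set (log2 ratio 0.05), but its dimmer ones had log2 ratios of 0.24 and 0.60. Relative to Gapdh its brightest probe set was at -0.08, the other side of 0. Pgam1 (phosphoglycerate mutase) went from 3521 to 2814, 1.25-fold lower (log2 ratio -0.32). Eno2, long used as a marker of neurons under the name neuron-specific enolase, went from 1026 to 634, 1.62-fold lower (log2 ratio -0.69), the lowest ratio of the 28 members. Each of the last 2 genes had 1 probe set.

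Gapdh, which the study used to normalise its quantitative PCR, had no probe set of its own outside the control probe sets of the array, and it is not counted among the 30. The controls cover the 3′ end, the middle and the 5′ end of its transcript. With WT first, their signals were 13829 and 15120 at the 3′ end (log2 ratio 0.13), 10938 and 11849 in the middle (log2 ratio 0.12), and 13187 and 13381 at the 5′ end (log2 ratio 0.02). Gpi1 and Eno1 were not analysed here.

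Lactate dehydrogenase interconverts pyruvate and lactate. Ldha, whose subunit favours lactate formation, went from 3730.1 to 4456 (log2 ratio 0.26). Ldhb, whose subunit favours lactate use, went from 7494 to 6680.1 (log2 ratio -0.17), and its 4 probe sets were all below 0, from -0.27 to -0.08. The ratios of these isoforms lay 0.42 apart, and here too the spread of such a gap is unknown.

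Both measured lactate transporters were higher in CD47 KO. Slc16a1 (MCT1), known from endothelium and from oligodendrocytes, went from 13129 to 17492, 1.33-fold higher (log2 ratio 0.41). Slc16a7 (MCT2), the transporter with the highest affinity for lactate and known from neurons, went from 185 to 281, 1.52-fold higher (log2 ratio 0.60), with both values close to the floor and 1 probe set. Slc16a3 (MCT4), the lactate exporter of strongly glycolytic cells and of astrocytes, was under the floor in both pools, with signals of 105 and 33.2, and has no ratio.

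Among hexose transporters, Slc2a1 (GLUT1), the glucose transporter of the blood-brain barrier and of astrocytes, had signals of 8924 and 8299, WT first (log2 ratio -0.10), and its other probe sets had log2 ratios of -0.09 and 0.12. Slc2a3 (GLUT3), the glucose transporter of neurons, had signals of 1339.5 and 1674 (log2 ratio 0.32), and its other probe set above the floor had a log2 ratio of -0.07. Slc2a5 (GLUT5), a fructose transporter that in brain marks microglia, had signals of 245 and 219 (log2 ratio -0.16). Its ratio minus that of Hk2 was -1.29 on the log2 scale, although both genes are known from microglia. Slc2a6 (GLUT6), known from leukocytes, was under the floor in both pools, with signals of 9.17 and 48.6.

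All 5 members that act on pyruvate in the mitochondria, or on the enzyme that does, had log2 ratios below 0, from -0.48 to -0.02. With the array medians set equal, however, Pdk3 and Pcx were at 0.017 and 0.006, and by the median over its probe sets Pdk1 was at 0.16. None was over 1.5-fold lower. Of the pyruvate dehydrogenase kinases, which switch the complex off, Pdk2 went from 270.0 to 194, 1.39-fold lower (log2 ratio -0.48). Pdk1, the isoform known as a target of hypoxia-inducible factor, had signals of 1277 and 1173 (log2 ratio -0.12), but its other 2 probe sets above the floor had log2 ratios of 0.16 and 0.18, so that its direction depended on the probe set. Pdk3 had signals of 598 and 589.7 (log2 ratio -0.02). Pdha1, the catalytic subunit of the complex itself, had signals of 5032 and 4855 (log2 ratio -0.05) and a second probe set at -0.31. Pcx, pyruvate carboxylase, which in brain belongs to astrocytes, had signals of 1029 and 1007 (log2 ratio -0.03). Control probe sets for Pcx are also on the array, and the 3′ one went from 905 to 774 (log2 ratio -0.23) while the 5′ one, just above the floor, went from 119 to 136 (log2 ratio 0.20).

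Glycogen phosphorylase releases glucose units from glycogen, which in brain lies mainly in astrocytes. Pygb, the brain form, had signals of 3832 and 3586, in the order WT and CD47 KO (log2 ratio -0.10). Pygm, the muscle form that astrocytes also hold, had signals of 235 and 194 (log2 ratio -0.28). Of the 8 skeletal muscle markers, 4 were under the floor in both pools and the other 4 had ratios below 0, with Casq1 going from 489.7 to 430.1 and Ckm from 133 to 100.2, which is under the floor; the signals of all 8, those under the floor included, summed to 1048 in WT and 959.7 in CD47 KO, and the part of muscle in the Pygm and Pfkm values was not tested.

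Hif1a encodes the oxygen-regulated subunit of a transcription factor that switches on many glycolysis genes and that is controlled mainly through the stability of its protein. Its signal went from 3955 to 5924 (log2 ratio 0.58), just under the 1.5-fold threshold, and its second probe set from 1414 to 1546 (log2 ratio 0.13). The genes of its regulators and of its known targets did not share a direction. They were taken as 1 list and not counted apart, so that the counts do not tell how the targets alone went. Of 19 measured, 9 were above 0 and 10 below, with a median of -0.07, and none was over 2-fold either way. The partner subunit Arnt had a log2 ratio of -0.40 and the related Hif3a one of -0.70, the sole member of this list over 1.5-fold, while P4ha1, a collagen prolyl hydroxylase, was at 0.44. Vegfa and Bnip3, classical targets, had log2 ratios of 0.07 and 0.02, and Slc2a1, which is also in this list, is described above.

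**Figure D2:**
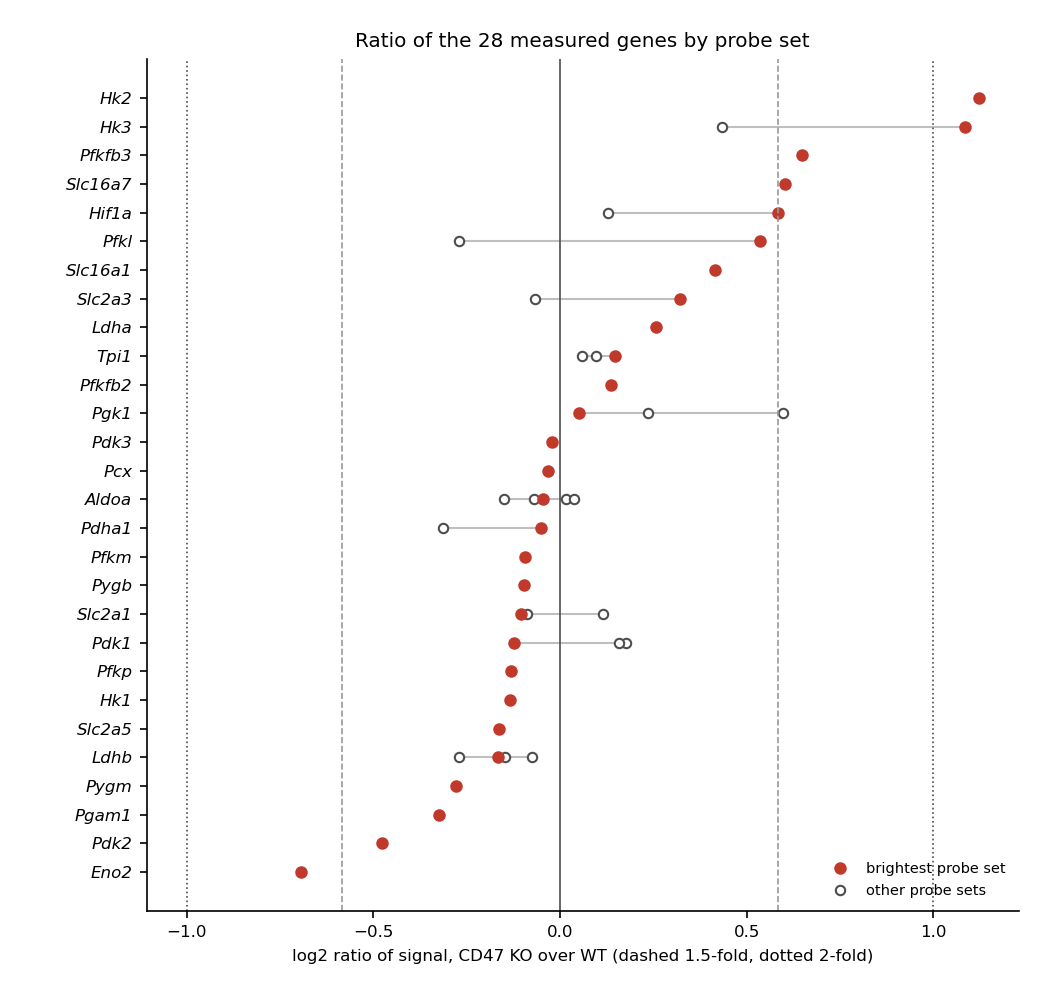
Horizontal axis, log2 of the CD47 KO signal over the WT signal, for 28 members, ordered by the brightest probe set (red), with other probe sets above the floor in at least 1 pool as open circles; dashed lines mark 1.5-fold and dotted lines 2-fold. Hk2 and Hk3 lie beyond 2-fold, Eno2 lies beyond 1.5-fold on the other side, and the probe sets of Pfkl lie on both sides of 0.

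Of the 28 members, 17 had 1 probe set above the floor and 11 had more. In 6 of these 11 all probe sets had ratios of the same sign, among them Hk3, Hif1a, Pgk1, Tpi1 and Ldhb, and in 5 (Pfkl, Slc2a3, Slc2a1, Pdk1 and Aldoa) the probe sets fell on both sides of 0. The median range between the lowest and highest probe set of a gene was 0.30 on the log2 scale. A ratio of that size or less in a single gene was thus no larger than the usual difference between probe sets of 1 gene.

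The isoforms were then set beside marker genes of the cells that are known to use them. Of the microglial and myeloid isoforms, Hk2 and Hk3 were over 2-fold higher and Slc2a5 had a log2 ratio of -0.16, with a median of 1.08 over these 3. This median was at least 0.43 without probe sets marked for cross-hybridisation, where it was the bound of Hk3. Of 10 measured microglial markers 8 were above 0, 5 of them over 2-fold higher, and their summed signal was 25697 in WT and 48211 in CD47 KO; Csf1r, the receptor that keeps microglia alive, was at 0.46 and the lipid receptor gene Trem2 at 2.68. The study had already reported Itgax, Cd68, Trem2, Tyrobp, Cx3cr1, Aif1 and Itgam as higher in CD47 KO on these arrays. The direction of those markers was thus known in advance. The 2 markers below 0 were Tmem119 (-0.52) and P2ry12 (-0.14), while Cx3cr1, like them a gene of resting microglia, was at 1.35. Markers of neutrophils and monocytes, other cells that use Hk3, had 5 of 5 measured members above 0, from 0.15 for S100a8 to 0.70 for Ngp. Of the same list, Ccr2 and Ly6c2 had no ratio. The brightest probe set of Ccr2 was under the floor in both pools, though 2 dimmer ones reached above it in at least 1. Ly6c2 had no probe set of its own. The signal, Ccr2 included, summed to 3031 in WT and 3689 in CD47 KO. The part of microglial or myeloid cell number in the hexokinase values was not tested.

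The neuronal isoforms did not go together. Eno2 had a log2 ratio of -0.69, whereas Slc2a3 was at 0.32 and Slc16a7 at 0.60, so that Slc16a7 and Eno2 lay 1.30 apart. The median of these 3 was 0.32, or -0.046 over the 2 left without probe sets marked for cross-hybridisation. Of 12 neuronal markers 11 were below 0, with a median of -0.82 and 4 over 2-fold lower, and their summed signal was 19456 in WT and 11818 in CD47 KO. Snap25, of the synaptic release machinery, was at -0.98 and Nefm, a neurofilament subunit, at -1.32. Eno2 thus lay on the side of the neuronal markers, and the brightest probe sets of the neuronal transporters on the other side, although the second probe set of Slc2a3 was at -0.07; the part of neuronal RNA in the Eno2 value was not tested.

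Of the astrocytic isoforms, Pfkfb3 was at 0.65 and Pcx, Pygb and Pygm were between -0.28 and -0.03, with a median of -0.06 over the 4. Astrocyte markers were above 0 for 6 of 8, with a median of 0.08, none over 1.5-fold, and a signal that summed to 107904 in WT and 118649.9 in CD47 KO, but relative to Gapdh their median was -0.05; S100b was at -0.04 and Gfap, the filament protein of reactive astrocytes, at 0.52. The transporters shared by vessels and oligodendrocytes parted, with Slc2a1 at -0.10 and Slc16a1 at 0.41. Endothelial markers were below 0 for 6 of 7, with a signal that summed to 5482 in WT and 4484 in CD47 KO, including Pecam1, which was under the floor in both pools. Abcb1a was at -0.55 and the growth factor receptor gene Kdr at -0.79. Oligodendrocyte markers were above 0 for 6 of 7, with a median of 0.11, but for 1 of 7, with a median of -0.02, relative to Gapdh. Their summed signal was 204952 in WT and 220754 in CD47 KO, with Mobp, a myelin protein gene, at 0.15. Red blood cell markers had 2 measured members, Alas2 at 0.03 and Slc4a1 at 0.31, and their signals, with those of Hba-a1, which was under the floor in both pools, summed to 808 in WT and 845 in CD47 KO. The part of these cells in the transporter values was not tested.

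**Figure D3:**
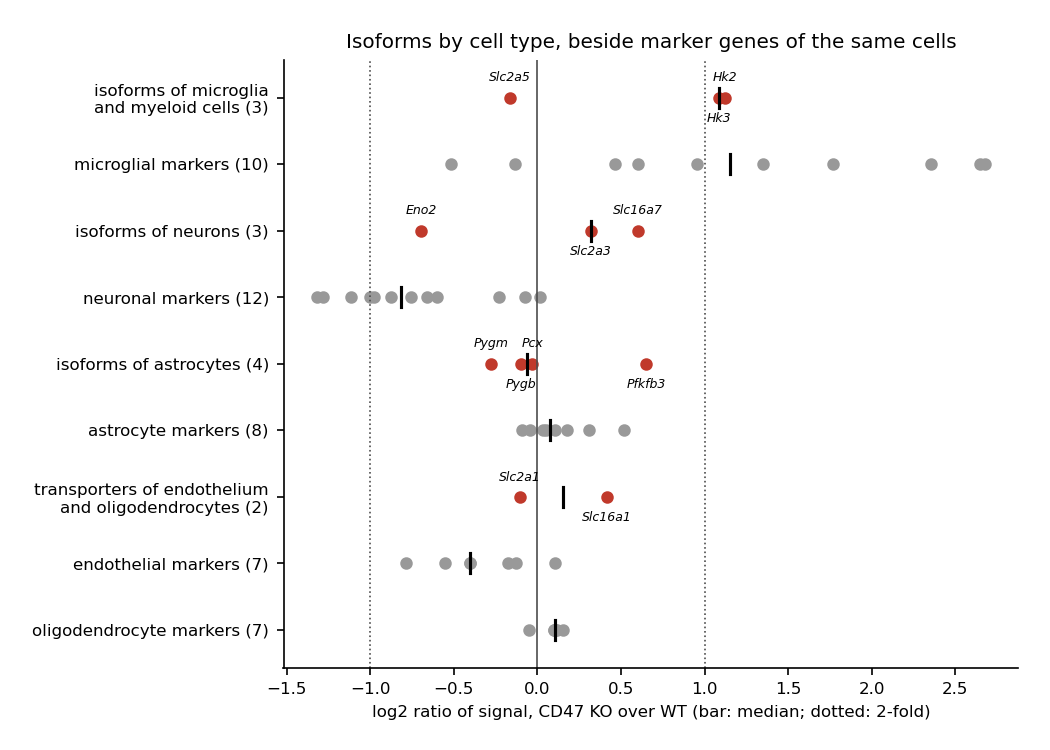
Horizontal axis, log2 of the CD47 KO signal over the WT signal, for isoforms grouped by the cells known to use them (red, named) and for marker genes of those cells (grey); black bars are medians, the number of genes is in brackets and dotted lines mark 2-fold. Hk2 and Hk3 lie on the side of most microglial markers and Eno2 on the side of the neuronal markers, while Slc2a5, Slc2a3 and Slc16a7, and with small ratios Pcx, Pygb and Pygm, lie on the opposite side of 0 to the median of their markers.

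The rest of the pathway was compared through 110 further genes. A signal above the floor was found for 80 of them. The median log2 ratio of these 80 was -0.03 (0.008 with the array medians set equal), with 36 above 0 and 44 below. None was over 2-fold higher (beside 1.21% of all genes) and 1 was over 2-fold lower (1.25%, beside 0.818%). Over 1.5-fold, 3 were higher (3.75%, beside 4.02%) and 5 lower (6.25%, beside 4.68%), shares near those of all genes. Other glycolysis enzymes had a median of 0.01 over 10 genes. Pkm, the pyruvate kinase of most tissues, had signals of 2000 in WT and 2061 in CD47 KO, and Aldoc, the aldolase of astrocytes, 16872 and 16532. Adpgk, an ADP-dependent glucokinase, went from 354 to 170.1 (log2 ratio -1.06), but its other probe set had the opposite sign, 0.17. Tigar, a phosphatase that opposes Pfkfb3, was at -0.53 and Eno3, the muscle enolase, at -0.16.

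Other transporters of hexoses and monocarboxylates had a median of -0.20 over 14 genes, with 10 of them below 0, beside 53.2% of all genes. Slc2a8 (GLUT8), an intracellular glucose transporter, went from 269 to 493, 1.84-fold higher (log2 ratio 0.88), whereas Slc16a9 and Slc16a12, relatives of the lactate transporters that carry carnitine and creatine, were at -0.75 and -0.67. Bsg, the chaperone that brings MCT1 to the membrane, was at -0.18. Genes of glycogen metabolism had a median of 0.00 over 20. Pygl, the liver form of glycogen phosphorylase, which leukocytes also use, went from 265 to 454 (log2 ratio 0.77), and Pgm2l1, a phosphohexomutase of brain, from 674 to 408 (log2 ratio -0.72). Gys1, glycogen synthase, had a signal of 196 in CD47 KO but of 15.2 in WT, which is under the floor, so that it was at least 1.84-fold higher.

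Genes of the pyruvate dehydrogenase complex, its regulators (Pdk4, Pdp1, Pdp2 and Pdpr) and the mitochondrial pyruvate carrier had a median of -0.15 over 9 genes. All of these differed by less than 1.25-fold. The lowest were Pdhb (-0.28), Dlat (-0.21) and Pdhx (-0.19), subunits of the complex. Of these 9, 6 were below 0 and 3 above. The pentose phosphate pathway, which branches off at glucose 6-phosphate, had a median of 0.07 over 7 genes, with H6pd at 0.25 as a bound, Tkt at 0.12 (-0.01 relative to Gapdh) and Rpia at -0.10. Of the genes of gluconeogenesis, 2 of 6 were measured, Pck2 at -0.16 and G6pc3 at -0.05.

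**Figure D4:**
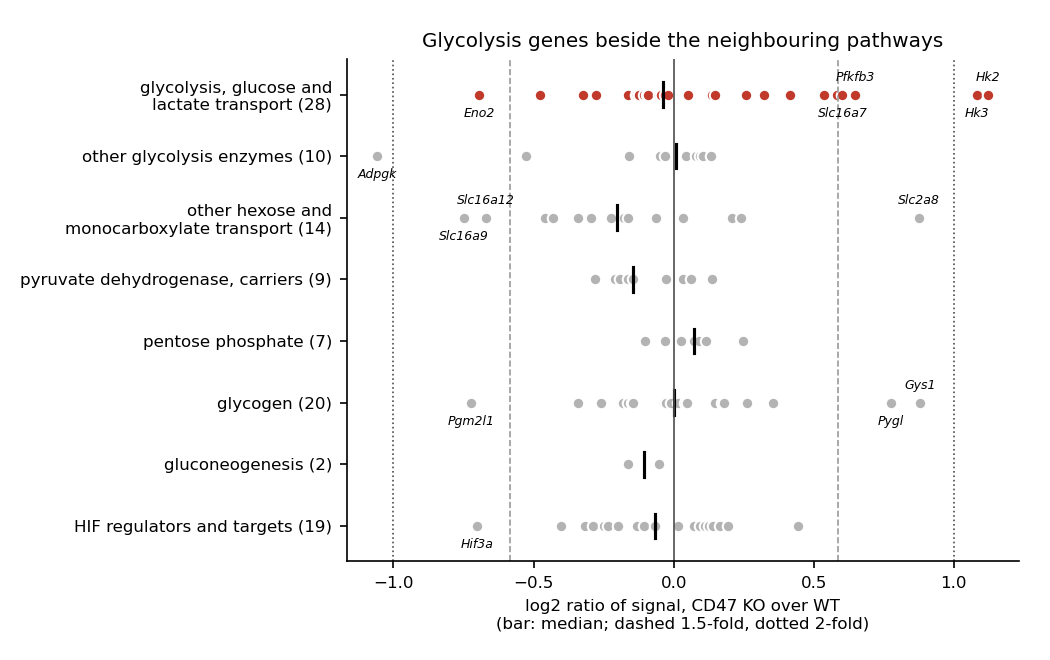
Horizontal axis, log2 of the CD47 KO signal over the WT signal, for 28 members (red) and for genes of 7 neighbouring pathway lists (grey), with genes over 1.5-fold named; black bars are medians, the number of measured genes is in brackets, dashed lines mark 1.5-fold and dotted lines 2-fold. All medians lie between -0.20 and 0.07, and the members beyond 2-fold are Hk2 and Hk3.

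Promoters of 5 members are shown with the core letters of the hypoxia response element. Hk2 and Hk3 had the highest log2 ratios and Eno2 the lowest, and Pfkfb3 and Ldha are, like Hk2, textbook targets of hypoxia-inducible factor. The sequences are from RefSeq (GRCm38.p6), 5′ to 3′ on the strand of the gene, and hold the 250 bases before the transcription start. Where a gene has several starts, the window with the most matches is shown. Capitals mark ACGTG and GCGTG or their reverse complements CACGT and CACGC; where CACGT and ACGTG overlap they form CACGTG, the letters of an E-box, which other factors also bind. The windows are chr6:82774455-82774704 on the minus strand, chr13:55021386-55021635 on the minus strand, chr2:11502091-11502340 on the minus strand, chr6:124769674-124769923 on the minus strand and chr7:46845554-46845803 on the plus strand.
Hk2: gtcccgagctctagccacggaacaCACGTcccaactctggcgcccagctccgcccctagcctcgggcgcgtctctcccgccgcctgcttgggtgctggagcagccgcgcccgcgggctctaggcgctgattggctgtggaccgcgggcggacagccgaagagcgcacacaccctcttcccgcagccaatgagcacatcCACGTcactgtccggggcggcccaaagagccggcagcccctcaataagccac
Hk3: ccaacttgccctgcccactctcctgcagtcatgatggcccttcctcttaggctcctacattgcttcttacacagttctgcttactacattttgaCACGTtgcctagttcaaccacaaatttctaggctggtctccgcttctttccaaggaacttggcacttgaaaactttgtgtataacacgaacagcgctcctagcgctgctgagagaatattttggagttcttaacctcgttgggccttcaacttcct
Pfkfb3: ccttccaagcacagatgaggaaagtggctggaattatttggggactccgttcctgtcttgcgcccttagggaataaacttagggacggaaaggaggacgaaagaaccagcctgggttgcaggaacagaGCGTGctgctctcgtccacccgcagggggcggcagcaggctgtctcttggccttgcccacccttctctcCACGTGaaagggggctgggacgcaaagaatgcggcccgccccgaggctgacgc
Eno2: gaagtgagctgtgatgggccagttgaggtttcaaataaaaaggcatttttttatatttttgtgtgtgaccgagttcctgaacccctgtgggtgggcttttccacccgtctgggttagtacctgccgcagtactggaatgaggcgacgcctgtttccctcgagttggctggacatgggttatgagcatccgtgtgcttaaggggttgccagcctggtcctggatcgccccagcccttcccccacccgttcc
Ldha: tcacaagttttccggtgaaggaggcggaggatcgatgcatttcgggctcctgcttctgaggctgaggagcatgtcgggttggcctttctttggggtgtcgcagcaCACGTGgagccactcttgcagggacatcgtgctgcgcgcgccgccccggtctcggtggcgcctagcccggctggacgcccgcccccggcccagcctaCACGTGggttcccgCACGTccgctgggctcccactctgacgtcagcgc

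The shown windows hold 2 matches for Hk2, 1 for Hk3, 3 for Pfkfb3 and 5 for Ldha, with overlapping matches counted singly, and 0 for Eno2. In windows that also take in the 50 bases after the start, 27 of the 31 members with a promoter sequence had at least 1 match (87.1%), compared with 66.5% of the 10098 genes above the floor with such a sequence and 46.7% of all 27025 genes. By window the shares were 78.3% for the members and 60.2% for genes above the floor, with a GC content of 60.5% in each. Slc16a7 and Slc2a3 were the members with no such sequence. Matches were thus also present in members whose signal was nearly equal in both pools, such as Pgk1. Members lower in CD47 KO held them too, with 3 in Pgam1 (log2 ratio -0.32) and 2 in a window of Pdk2 (-0.48). Tpi1 (0.15) had 0, and the letters do not show that a factor binds.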

How the data were processed

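RNA of each pool was amplified from its 3′ end and hybridised to an Affymetrix Mouse Genome 430 2.0 array, and scanner output was read by the authors in Expression Console. The submitters' processing notes name MAS5 (version not given in the sources used here). Deposited were linear intensity values, 1 per probe set, with the same 2% trimmed mean on each array (500.003). MAS5 makes ratios of dim probe sets noisy, and probes near the 3′ end do not tell splice forms apart.

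Here 64 control probe sets were set aside from 45101, intensities under the 50th percentile of both arrays (106.4) were set to it, and log2 ratios were taken. Such a ratio with 1 pool at the floor is a bound. Genes were named from the platform annotation (34945 probe sets with 1 symbol, 932 with several, 9160 with none; the last 2 kinds were left out), updated by gene identifier through RefSeq for 34741. The brightest probe set stood for a gene. Over 2-fold is the threshold of the study; 1.5-fold was added. The members, lists and folds were chosen with earlier results of these data known. Named are all members, the 3 genes with the largest absolute ratio of each pathway list, and of each marker list the brightest gene and the one with the largest ratio; any other gene was picked with its values in view. The log2 ratio and the 2-fold call were tested on simulated data. The changes put in were larger than those of Hk2 and Hk3, and in genes brighter in WT. All changed genes lay above the floor and all probe sets of a gene changed alike. That test could thus not judge the floor or the choice of probe set. The 1.5-fold call, the other scalings, the median over probe sets and the promoter search were not tested. Protein sequences were not used here. Python 3.11.15, pandas 2.3.3 and statsmodels 0.14.6 (loess) were used.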

Additional observations from a re-analysis of the deposited data

How the results depend on the processing

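There were 10 alternatives: a lower floor (40th percentile), a higher floor (60th percentile), none, 4 other scalings (quantile, array medians set equal, loess, relative to Gapdh), the median over the probe sets of a gene, leaving out probe sets marked for cross-hybridisation and, chosen after seeing the data, ratios relative to the 5′ control probe set of Gapdh in place of the 3′ one. The number of members over 2-fold higher, 2 as reported, was 1 with the higher floor, with the median over the probe sets and without marked probe sets, and 0 relative to Gapdh, where Hk2 was at 0.99 and all genes had a median of -0.14. By the 5′ control it was 2, with Hk2 at 1.10. Members over 2-fold lower went from 0 to 1 with no floor, since Slc16a3, under the floor in both pools, then counts. Members over 1.5-fold higher went from 4 to 2 relative to Gapdh, and those over 1.5-fold lower from 1 to 2 with the lower floor, with no floor and relative to Gapdh. The median of the microglial and myeloid isoforms was 0.43, the bound of Hk3, and that of the neuronal isoforms -0.046, without marked probe sets. Among the other pathway genes the number over 2-fold higher went from 0 to 1 with the lower floor and 4 with no floor. The number over 2-fold lower went from 1 to 7 with no floor and to 0 with the higher floor, with the median over the probe sets and without marked probe sets. The number over 1.5-fold higher went from 3 to 5 with the lower floor and 11 with no floor, and that over 1.5-fold lower from 5 to 15 with no floor. The ratio of Adpgk was 0.17 without marked probe sets and -0.45 by the median over its probe sets. That of Gys1, 0.88 as reported, was 0.07 with the higher floor (which took the number over 1.5-fold higher from 3 to 2), 1.53 with the lower floor and 3.69 with none. H6pd went from 0.25 to 0.74 with the lower floor or none, and Pfkl from 0.54 to 0.13 by the median over its probe sets. Hk3 went to a bound of 0.43 without marked probe sets. The other 120 summary values stayed within 1.5 times the count or within 0.36 of the median, and the other 468 ratios of single genes within 0.36. Among these, Pgk1, Pdk1, Pdk3, Pcx and Tkt crossed 0 under at least 1 alternative. No paired analysis was possible because there was 1 array per genotype. With 2 arrays in all, the spread over mice and over hybridisations is unknown and limits every ratio given.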
